A study of Arabidopsis thaliana with 12 samples.

Results

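The report concerns 4 enzyme genes of Arabidopsis thaliana. Of these, 3 build fatty acids or branched-chain amino acids in the plastid and 1 serves amino acid breakdown in mitochondria. They were taken as the array rows that the platform annotation lists with a single gene, where that gene was AT1G24360, FATB, AT3G23940 or ETFQO. Each had 1 such row, so that the 4 genes are 4 of the 691 genes measured by a row of their own. A further row lists FATB together with other genes and was left out.

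Wild-type plants of ecotype Columbia 0 were compared at 2 CO2 levels, 6 samples at the normal level and 6 after a final 48 h at 0.003% CO2 by volume. The array gave 3439 rows for total RNA. The titles place the normal CO2 samples at day 0 and all low CO2 samples at day 2, so CO2 and elapsed time cannot be told apart. The labels name no tissue. Nothing in them tells whether separate plants stood behind the 6 samples per group, and p-values may thus reflect technical spread only.

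Fatty acids are made in the plastid on acyl carrier protein (ACP), by rounds of condensation, reduction, dehydration and a further reduction, and a thioesterase ends the chain by cutting it from ACP. Valine, leucine and isoleucine are also made in the plastid, by enzymes that valine and isoleucine synthesis share. Their breakdown runs in mitochondria. There, dehydrogenases hand electrons to a flavoprotein, which ETFQO oxidizes to feed the ubiquinone pool of the respiratory chain, a route known in Arabidopsis from plants starved of carbon in prolonged darkness.

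All values are the deposited intensities, a linear scale with array means of 0.993 to 1.10 and no stated background correction. Array medians averaged 0.519 at normal CO2 (SD 0.0404, n = 6) and 0.359 at low CO2 (SD 0.0111, n = 6). Fold changes are therefore given after quantile normalization, which sets the distribution of all rows equal between arrays, and the deposited scale is given beside them. The median log2 fold change of all rows was -0.05 after normalization and -0.60 on the deposited scale. Of 12 genes fixed as markers of green tissue 7 were measured, each with a signal above 0 in every sample, and 2 were higher, 3 lower and 2 not past the test at low CO2, where 18.9% of all rows were higher and 23.5% lower. Of those 5 calls, PSBY (limma adjusted p = 0.138) and SBPASE (0.0533) were lost with adjacent samples as a random block, and 0 of the 7 passed with adjacent samples averaged. None of 5 seed storage genes was measured by a row of its own.

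Of the 4 genes, AT1G24360 and AT3G23940 rose, ETFQO fell and FATB did not pass (limma, 6 against 6, Benjamini-Hochberg adjusted p under 0.05 over all rows). Changes were common, as 42.4% of all rows passed, 18.9% upward and 23.5% downward, so a count of 3 among 4 genes is not read as particular to them. Adjacent replicate numbers (1 and 2, 3 and 4, 5 and 6) resembled each other closely. When each such pair was averaged, 0 of the 4 genes passed, against 18.0% of all rows, although 3 of them had an unadjusted p under 0.05 there. With the pairs kept as a random block in limma, the same 3 genes passed, against 29.3% of all rows. In bulk RNA such as this, fewer cells of a type and less RNA per cell cannot be told apart.

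**Figure D1:**
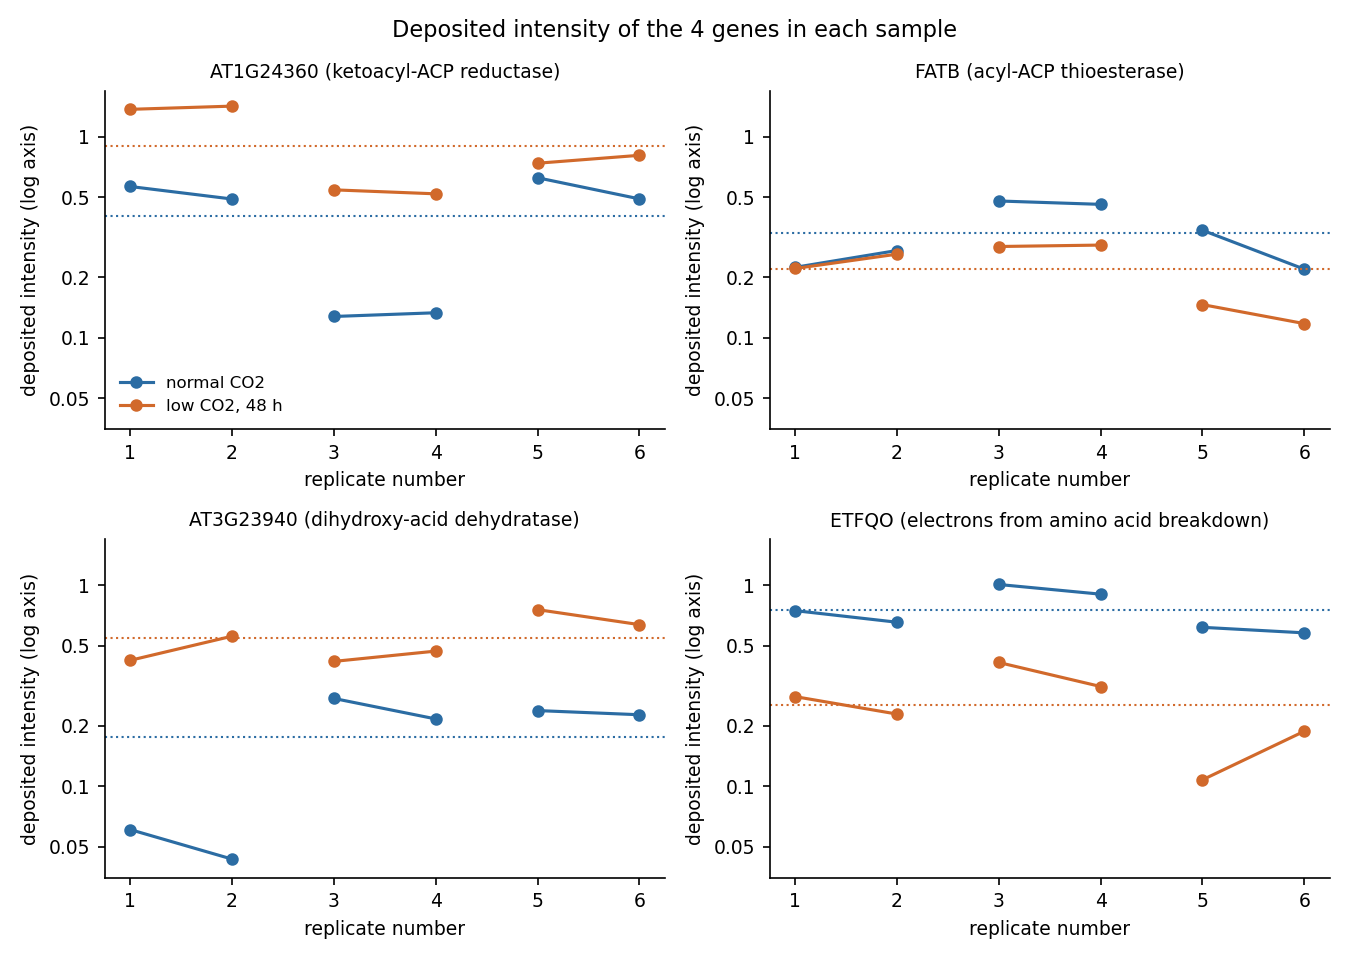
Deposited intensity (log axis) of each gene against the replicate number, blue for normal CO2 and orange for low CO2, with adjacent numbers joined and dotted lines at the group means (n = 6). ETFQO and AT3G23940 show no overlap between groups, while AT1G24360 and FATB do, and most joined samples lie closer to each other than to the rest of their group, with low CO2 replicates 5 and 6 of ETFQO (0.108 and 0.188) and normal CO2 replicates 5 and 6 of FATB (0.343 and 0.219) further apart.

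AT1G24360 encodes the ketoacyl-ACP reductase that carries out the first reduction of each round of fatty acid synthesis. Its deposited intensity ran from 0.128 through a median of 0.491 to 0.625 at normal CO2, and from 0.520 through 0.774 to 1.42 at low CO2. The lowest values were those of normal CO2 replicates 3 and 4, at 0.128 and 0.133, and the highest those of low CO2 replicates 1 and 2, at 1.37 and 1.42. The groups overlapped on the deposited scale but not after normalization. Deposited group means were 0.406 ± 0.219 and 0.901 ± 0.399 (SD, n = 6 each).

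The rise of AT1G24360 was 1.68 ± 0.41 on the log2 scale (SE, 95% interval 0.78 to 2.59, limma adjusted p = 0.00656), or 3.21-fold. In each of the 6 replicate numbers the low CO2 sample was higher. By pair of adjacent numbers the normalized log2 fold change was 1.69 for 1 and 2, 2.19 for 3 and 4, and 1.17 for 5 and 6. On pair averages the SE was 0.60 and the adjusted p 0.108. On the deposited scale, where the same 3 genes passed and 48.7% of all rows did, the change was 1.31 ± 0.48 (limma adjusted p = 0.0423).

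FATB encodes the thioesterase that releases saturated chains, chiefly palmitate, from ACP for export from the plastid. Its intensity lay between 0.219 and 0.479 with a median of 0.307 at normal CO2, and between 0.118 and 0.289 with a median of 0.241 at low CO2. The ranges overlapped on both scales. Replicates 1 and 2 were almost the same in both groups, at 0.224 and 0.272 for normal and 0.221 and 0.261 for low CO2. In replicates 3 to 6 the low CO2 sample was dimmer by a wider margin.

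After normalization the log2 difference of FATB was 0.10 ± 0.34 (SE, 95% interval -0.65 to 0.85, limma adjusted p = 0.840), and 3 of the 6 replicate numbers were higher at low CO2. On the deposited scale it was -0.61 ± 0.29 (limma adjusted p = 0.110), close to the -0.60 of the median row there, and all 6 numbers were lower. With median scaling FATB was at -0.075 and the median row at -0.064, and with 75th percentile scaling they were at -0.21 and -0.20. These 3 scalings differ only by a constant per array, which shifts every row alike. FATB is therefore equally close to the median row in each, and they are not separate results. After quantile normalization the median row was at -0.05 and FATB at 0.10, on the other side of 0. With 6 arrays per group, normalized differences between -0.65 and 0.85 could not be told apart.

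AT3G23940 encodes dihydroxy-acid dehydratase, the iron-sulfur enzyme that makes the keto acids from which valine and isoleucine are formed. At normal CO2 its intensity ran from 0.0434 through a median of 0.222 to 0.273, and at low CO2 from 0.418 through 0.514 to 0.757. Every low CO2 sample was above every normal CO2 sample, which held upward for 7.24% of all rows on the deposited scale. Normal CO2 replicates 1 and 2 stood far below the other samples of the group, at 0.0608 and 0.0434 against 0.216 to 0.273. Over the normal CO2 arrays, 7.65% to 34.1% of rows were at or below its signal, so at normal CO2 it was dim, against 55.0% to 75.1% at low CO2.

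For AT3G23940 the normalized rise was 2.86 ± 0.67 (SE, 95% interval 1.40 to 4.33, limma adjusted p = 0.00488), and 108 of the 3439 rows had a higher log2 fold change. Pair by pair it was 4.83 for numbers 1 and 2, 1.15 for 3 and 4 and 2.61 for 5 and 6. The size therefore rested in part on the first pair, whose dim normal CO2 samples were lowered further by normalization. Without replicates 1 and 2 of both groups the change was 1.88 ± 0.31 (limma adjusted p = 0.00439), and on the deposited scale with all samples it was 1.90 ± 0.47 (adjusted p = 0.00571). On pair averages the adjusted p was 0.0950 with an SE of 0.95.

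ETFQO encodes the mitochondrial electron-transfer flavoprotein:ubiquinone oxidoreductase. Its intensity ran from 0.580 through 0.702 to 1.01 at normal CO2 and from 0.108 through 0.254 to 0.413 at low CO2. The deposited groups did not overlap, as in 34.5% of all rows and, with low CO2 as the lower group, 27.3%. After normalization they did overlap, through low CO2 replicate 3, and 28.0% of all rows were without overlap on that scale. The 2 dimmest samples were low CO2 replicates 5 and 6, at 0.108 and 0.188.

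The log2 fold change of ETFQO was -1.13 ± 0.30 (SE, 95% interval -1.79 to -0.47, limma adjusted p = 0.0101), a fall by 2.19-fold, and on the deposited scale it was -1.65 ± 0.30 (adjusted p = 0.000735). All 6 replicate numbers were lower at low CO2 on both scales. Its pairs were the most alike of the 4 genes, at -1.12, -0.89 and -1.38 for numbers 1 and 2, 3 and 4, and 5 and 6. On pair averages the SE was 0.42 and the adjusted p 0.114. It also missed the threshold when replicates 1 and 2 of both groups were left out (-1.14 ± 0.45, limma adjusted p = 0.103).

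**Figure D2:**
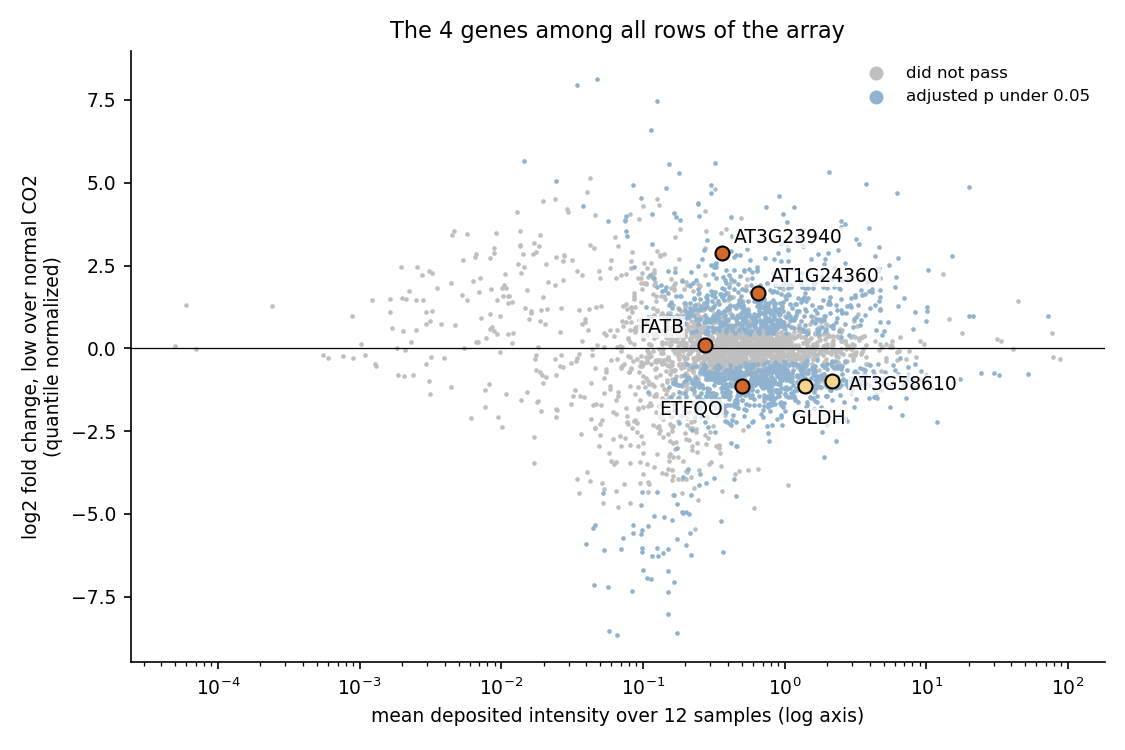
Log2 fold change after quantile normalization against mean deposited intensity over the 12 samples (log axis), for all 3439 rows, blue where limma's adjusted p was under 0.05. AT3G23940 at 2.86 and AT1G24360 at 1.68 lie above 0, FATB at 0.10 lies on it, and ETFQO at -1.13 lies below with AT3G58610 at -1.00 and GLDH at -1.15.

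The building genes were set against the breakdown gene by the ratio of their deposited values to that of ETFQO on the same array. ETFQO serves amino acid breakdown, so for AT1G24360 and FATB this does not set building against breakdown of the same compound. The change of such a ratio between groups does not depend on a factor common to a whole array, but quantile normalization can alter it. A ratio shows unequal change and does not tell which of the genes moved, and its level has no meaning across probes, so each is given on the log2 scale relative to its own normal CO2 mean. The ratio of AT1G24360 to ETFQO ran from -1.85 through 0.72 to 1.15 at normal CO2 and from 1.53 through 3.33 to 3.91 at low CO2. The ratio of AT3G23940 to ETFQO ran from -1.55 through 0.40 to 1.01 and from 2.39 through 3.31 to 5.18. For FATB to ETFQO the values were -0.52, 0.05 and 0.37 at normal and 0.54, 0.99 and 1.66 at low CO2.

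In all 3 ratios, every low CO2 sample was above every normal CO2 sample, which held for 30.5% of the other 3438 rows set against ETFQO in the same way. The mean rise was 2.96 ± 0.69 for AT1G24360, 3.55 ± 0.62 for AT3G23940 and 1.04 ± 0.22 for FATB (SE, n = 6 each). Each gave p = 0.00216 in a two-sided exact permutation test over the 12 samples, the smallest that 6 against 6 can give, and the same after adjustment over the 3 comparisons. With adjacent samples averaged, p was 0.10, the smallest that 3 against 3 can give. On quantile normalized values the rise was 2.81 for AT1G24360, 3.99 for AT3G23940 and 1.23 for FATB. With the place of a row in a repeat of the numbering, described below, taken off, the rise came down to 1.74 for AT1G24360 and was 3.06 for AT3G23940 and 1.17 for FATB.

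The ratios to ETFQO did not stand alike among all rows. ETFQO itself was among the genes that fell, and the median row gained 1.06 on it. FATB gained as much as the median row, with 50.5% of rows gaining more. The gain of AT1G24360 was exceeded by 7.13% of rows and that of AT3G23940 by 3.87%.

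**Figure D3:**
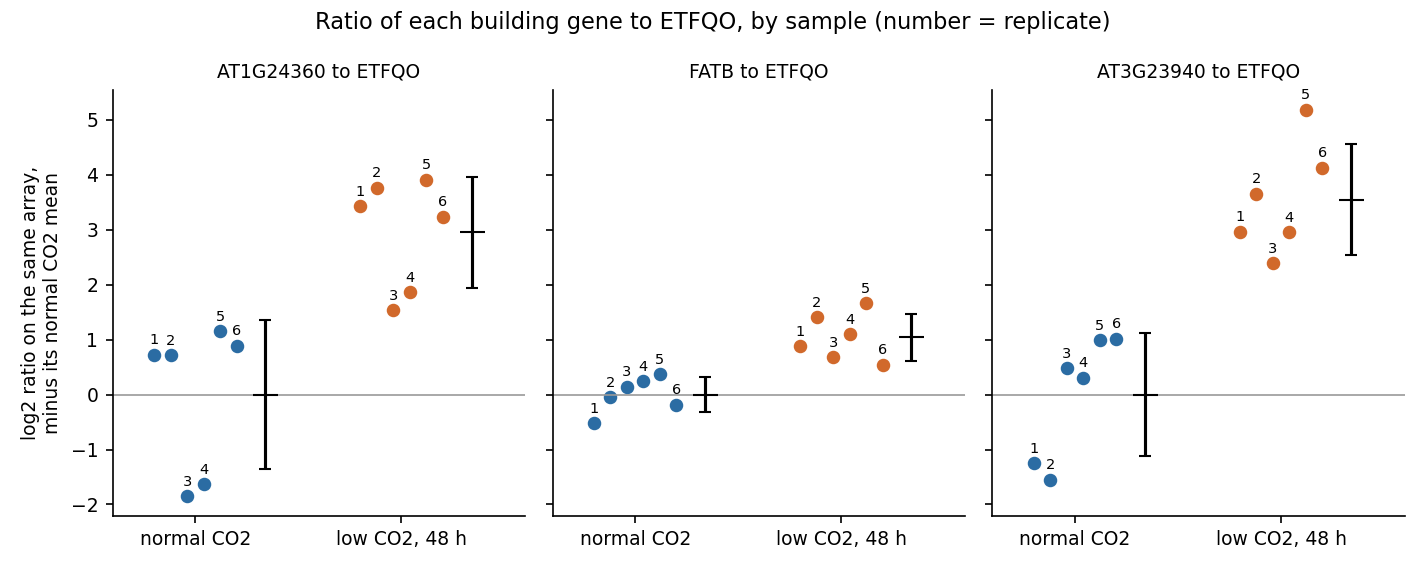
Log2 ratio of each building gene to ETFQO on the same array, minus its normal CO2 mean, for each sample (points, numbered by replicate), with group mean ± SD (bars, n = 6). All low CO2 points lie above all normal CO2 points in the 3 panels, by mean differences of 2.96, 1.04 and 3.55 from left to right.

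The spread within a group was mostly a spread between pairs of adjacent replicate numbers. Of the within-group sum of squares on the normalized log2 scale, pairs held 97.7% for AT1G24360, 97.8% for AT3G23940, 86.8% for FATB and 83.7% for ETFQO, against a median of 70.7% over all rows. Samples of 1 pair differed by at most 1.35-fold for AT1G24360 and 1.84-fold for FATB after normalization.

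The order of the pairs recurred between the CO2 levels for 3 of the genes. For AT1G24360, the pair of numbers 3 and 4 was the lowest in both groups, at -1.13 from the mean of the pairs at normal and -0.62 at low CO2, and numbers 1 and 2 were the highest. For ETFQO the same pair was the highest, at 0.39 and 0.62, and numbers 5 and 6 the lowest, at -0.43 and -0.68. FATB had that order too, with 0.80 and 0.49 for numbers 3 and 4 and -0.51 and -0.64 for numbers 5 and 6. AT3G23940 differed, with numbers 1 and 2 lowest at normal CO2 (-2.12) and numbers 3 and 4 lowest at low CO2 (-0.26).

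With the replicate number as a block in limma, the SE was 0.20 instead of 0.41 for AT1G24360, 0.15 instead of 0.30 for ETFQO and 0.17 instead of 0.34 for FATB. For AT3G23940 it was 0.62 instead of 0.67. The same 3 genes passed, against 45.9% of all rows, and FATB at 0.10 did not (limma adjusted p = 0.650). This fit treats adjacent numbers as independent although they resembled each other, so its SEs are likely too small. With adjacent samples averaged and the pairs as the block, 0 of the 4 genes passed, against 375 of all 3439 rows.

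Fold changes on this array also followed the place of a row in a repeat of 288 row numbers. The medians of its 48 bins ran from -0.79 to 1.03. AT1G24360 and AT3G23940 lay in bins with medians of 0.50 and 0.62, and FATB and ETFQO in bins at -0.32 and -0.29. After subtraction of the median deviation of every bin in every sample, AT1G24360 changed by 0.93 ± 0.26 (limma adjusted p = 0.0149), AT3G23940 by 2.26 ± 0.72 (adjusted p = 0.0288) and ETFQO by -0.80 ± 0.26 (adjusted p = 0.0301), where 37.5% of all rows passed. FATB was then at 0.36 ± 0.32 (adjusted p = 0.390). The estimate for AT1G24360 thereby came down by more than 1.5 times, and what the repeat stands for was not tested.

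**Figure D4:**
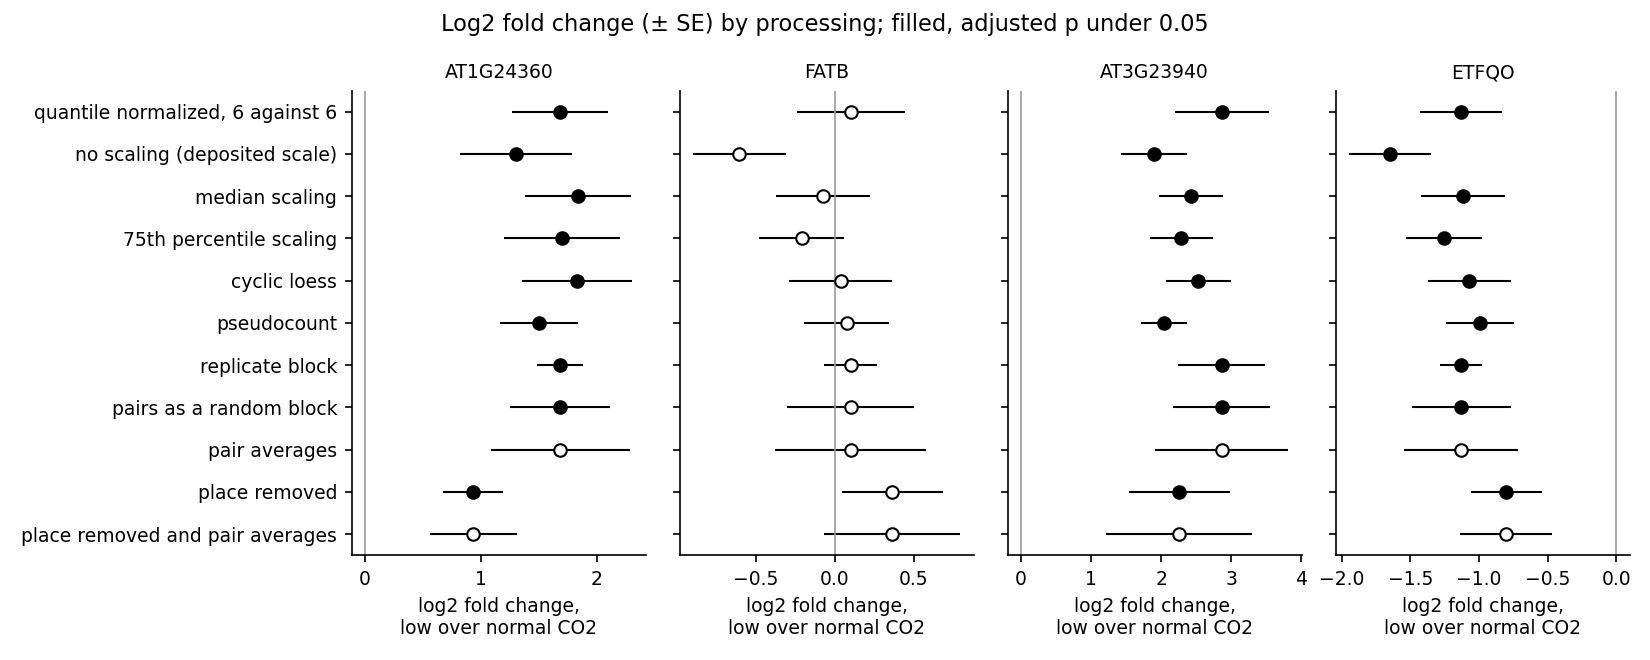
Log2 fold change ± SE of each gene (low over normal CO2) under 11 ways of processing, with filled circles where limma's adjusted p was under 0.05. AT1G24360 and AT3G23940 stay above 0 and ETFQO below 0 throughout, FATB lies on either side of 0, and no circle is filled where pairs were averaged.

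Few other genes of these pathways had a row of their own. Of 38 genes listed for plastid fatty acid synthesis 3 were measured, the third beside AT1G24360 and FATB being AT5G16230, of the acyl-ACP desaturase family. That gene was listed at 0 in 10 of the 12 samples, and no fold is given for it. Of the 3, AT1G24360 was the 1 that rose, where 18.9% of all rows were higher. No gene of the lists for membrane lipids and desaturation (13 genes) or peroxisomal fatty acid breakdown (15 genes) was measured by a row of its own.

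Of 18 genes for branched-chain amino acid synthesis 2 were measured, 1 higher and 1 lower, where 18.9% of all rows were higher and 23.5% lower. The lower gene was AT3G58610, encoding ketol-acid reductoisomerase, whose product is the substrate of dihydroxy-acid dehydratase. AT3G58610 ran from 2.17 through 3.08 to 3.75 at normal CO2 and from 1.07 through 1.34 to 1.64 at low CO2. It was without overlap, as were 27.3% of all rows with low CO2 as the lower group. Its log2 fold change was -1.00 ± 0.17 (SE, limma adjusted p = 0.000591), with an adjusted p of 0.0585 on pair averages and a value of -0.47 after removal of the place effect described above (adjusted p = 0.0541).

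These 2 consecutive steps of valine and isoleucine synthesis thus moved in opposite directions in the fit of 6 against 6. On the same array, the log2 ratio of AT3G23940 to AT3G58610, relative to its normal CO2 mean, ran from -1.29 to 0.62 at normal and from 2.40 to 3.85 at low CO2. This ratio was chosen after the values were seen and was not tested.

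ETFQO was the only measured gene of 25 for mitochondrial amino acid breakdown. Of 11 genes listed around the ubiquinone pool, 2 were measured and both were lower, ETFQO and GLDH, where 23.5% of all rows were lower. ETFQO did not pass on pair averages, as given above. GLDH encodes the mitochondrial dehydrogenase that completes ascorbate synthesis and is known to pass its electrons to cytochrome c, so it acts beside that pool rather than on it. Its intensity ran from 1.79 through 2.03 to 2.25 at normal CO2 and from 0.671 through 0.758 to 0.833 at low CO2. Like 27.3% of all rows, it had no overlap, with low CO2 as the lower group. The log2 fold change was -1.15 ± 0.11 (SE, limma adjusted p = 1.06e-05), and it passed on pair averages (adjusted p = 0.0209) and after removal of the place effect (-0.62, adjusted p = 0.00261).

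Of 61 genes for other amino acids made in the plastid 3 were measured and 0 passed by limma over all rows, with 0 at an unadjusted p under 0.05. Among all rows 42.4% passed. The diaminopimelate epimerase gene AT3G53580 of lysine synthesis was at -2.95 ± 2.06, with a value of 0 in 2 low CO2 samples. The cystathionine beta-lyase gene CBL of methionine synthesis was at 1.01 ± 1.11, an error as large as the difference. Its deposited means went the other way, from 0.559 ± 0.414 to 0.376 ± 0.108 (SD, n = 6 each), and its lowest normal CO2 sample was at 0.0197. AT-HF, the imidazole glycerol phosphate synthase gene of histidine synthesis, is named after its values were seen, as it was at 0.19 ± 0.30 but passed at 0.81 with the place taken off (limma adjusted p = 0.0206).

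For each of the 4 genes the named genes with the most similar profile were sought among 500 other genes above the 25th percentile of mean signal. Likeness was the root mean square difference of normalized log2 values over the 12 samples, each gene centred on its own mean. AT5G33390 lay nearest to AT1G24360, at 0.24 against a median of 1.24 over the 500, followed by AT3G61870 at 0.32 and AT1G49850 at 0.45. These 3 were also low in normal CO2 replicates 3 and 4. AT5G33390 and AT3G61870 share a bin of the repeat of row numbers, which is not that of AT1G24360. The place effect was not taken off before the profiles were compared. The nearest to ETFQO were RALFL32, of the RALF family of signalling peptides, at 0.30, AT2G37880 at 0.31 and AT4G16610 at 0.32, where the median was 0.85.

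FATB lay nearest to AT5G62360, AT1G13990 and AT3G02690, at 0.35, 0.35 and 0.36 against a median of 0.77. No gene was as close to AT3G23940, but its median distance was the largest as well, so its profile is not read as less shared. The nearest to AT3G23940 were the pentatricopeptide repeat gene AT5G39980 at 0.66, AT2G35390 at 0.85 and AT4G27510 at 0.89, against a median of 1.90. None of the 12 neighbours belonged to the pathway lists. Few genes of those lists had a row of their own, so their absence was likely from the start. It does not show that pathway genes have unlike profiles.

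**Figure D5:**
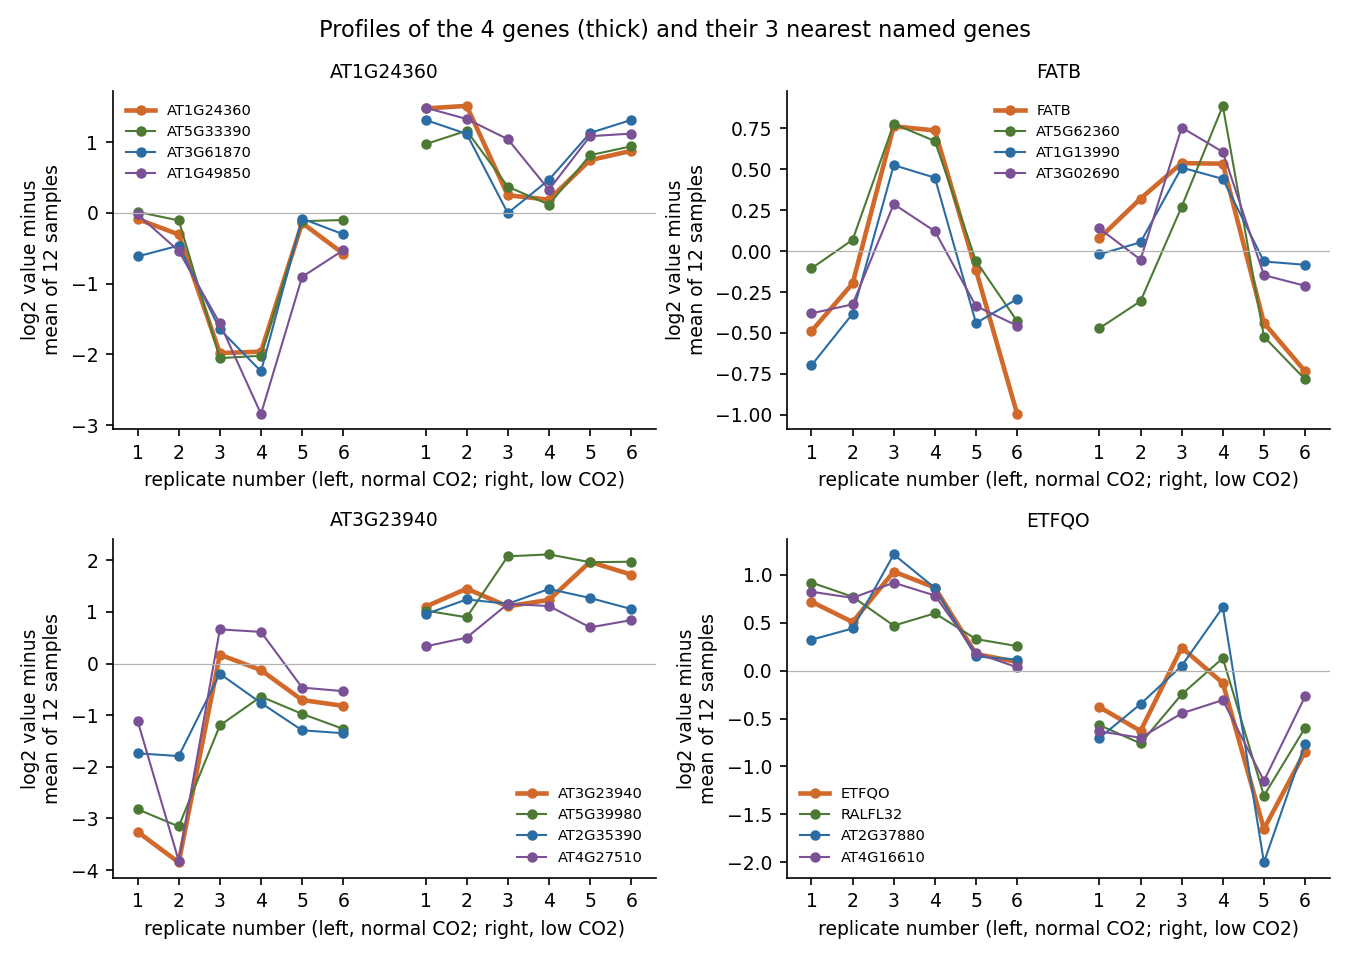
Normalized log2 value minus the mean of the 12 samples, by replicate number, for each of the 4 genes (thick orange line) and its 3 nearest named genes (thin lines), normal CO2 on the left and low CO2 on the right of each panel. Neighbours of AT1G24360 share its low values in normal CO2 replicates 3 and 4, at root mean square differences of 0.24 to 0.45.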

How the data were processed

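The table held array intensity values that the authors deposited on a linear scale for 12 samples. For the scanner, background correction and scaling, nothing was found in the labels or the file (not given in the sources used here). Groups and replicate numbers came from the sample titles. Gene names came from the platform annotation, updated through TAIR10.1 gene identifiers for 690 of the 692 rows that list 1 gene. A row that lists several genes or none was left unnamed but entered every fit.

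A value of 0 was replaced by the lowest positive value on the same array before taking log2 and quantile normalizing. Groups were compared over all 3439 rows with limma 3.58.1 in R 4.3.3 (lmFit, eBayes, two-sided, no block) with Benjamini-Hochberg adjustment at 0.05. None of the 4 genes had a value of 0. Ratios were tested by exact permutation in SciPy 1.17.1. The number of arrays limits the precision.

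Samples with the same number in both groups had weakly correlated deviations (0.128 to 0.214, every pair above 0.1). Different numbers were not compared between groups, so whether the single numbers pair the samples was not tested. Within groups, the best partner was the adjacent number for 12 of 12 samples, with a consensus correlation of 0.567, so p-values of the fit of 6 against 6 are likely too small. Genes named beside the 4 were up to 2 per direction and up to 2 not passing per list, by smallest p. The 3 nearest profiles per gene were named as well. AT-HF and SBPASE are outside these rules. The 4 genes, lists and alternatives were chosen with earlier results of these data known. The fit was tested on simulated data with independent samples. Those lacked the likeness of adjacent numbers, so the test could not check the p-values under it. Alternatives were other scalings, a pseudocount of 0.0493, a filter on dim rows, trend and robust variance, replicate block, pairs averaged or as a random block, the place in the repeat removed, and samples or pairs left out. No protein, promoter or probe sequences were used here.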

Additional observations from a re-analysis of the deposited data

Results flagged for a closer look

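In 14 sets of 6 values, those of the 4 genes and the 3 ratios in each group, 0 had a single sample whose gap to its nearest neighbour exceeded Dixon's critical share of the range. Adjacent samples resembled each other, so a pair that lies apart hides itself from this test. Normal CO2 replicates 1 and 2 of AT3G23940, at 0.0608 and 0.0434, are such a pair. The count of 0 therefore does not show that the sets lack outlying samples.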

How the results depend on the processing

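AT1G24360, AT3G23940 and ETFQO kept their direction in all 28 alternatives and their side of the threshold in 25, 25 and 24. The exceptions lay with adjacent samples averaged (1.68, 2.86 and -1.13 in this order, limma adjusted p = 0.108, 0.0950 and 0.114), averaged with a replicate block of pairs (same values, adjusted p = 0.0511, 0.101 and 0.0539), and averaged with the place removed (0.93, 2.26 and -0.80, adjusted p = 0.159, 0.197 and 0.168). Averaging leaves 3 samples per group. ETFQO also missed it without numbers 1 and 2 (-1.14). The replicate block without averaging changed no call of the 4 genes, but it treats adjacent numbers as independent. With samples or pairs left out, AT1G24360 ran from 1.43 to 1.94, AT3G23940 from 1.88 to 3.72, ETFQO from -1.25 without a pair and -1.29 without a sample to -0.91, and FATB from -0.12 to 0.26. FATB changed sign in 5 of 28 alternatives, at -0.61 on the deposited scale, -0.075 with median and -0.21 with 75th percentile scaling (where the median row was at -0.60, -0.064 and -0.20), -0.12 without numbers 1 and 2 and -0.09 without normal CO2 replicate 6, and passed in none. The deposited scale and the median and 75th percentile scalings differ only by a constant per array, so these 3 are not separate results. The cause of the changes of sign was not tested. The ratios to ETFQO gave p = 0.10 on pair averages (2.96, 1.04 and 3.55 for AT1G24360, FATB and AT3G23940) and kept direction and threshold in the other 16 alternatives each, the replicate block included (exact sign-flip p = 0.0312). Most of these p-values were the smallest the test can give, and the sign flips treat adjacent numbers, which resembled each other, as independent. The ratio of AT1G24360 came down to 1.74 with the place removed. With single samples left out they ran from 2.59 to 3.24, 0.92 to 1.15 and 3.22 to 3.78. Over all rows 1457 passed, against 618 on pair averages, 375 with a replicate block of pairs as well and 454 with the place removed and pairs averaged, and 1331 to 1428 without a sample or 1008 to 1542 without a pair. AT3G23940 was dim at normal CO2, which limits the precision of its fold.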
